A study of Homo sapiens with 16 samples.

Results

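RNA sequencing of PANC1 cells was used to describe what gemcitabine did to the transcripts of cells that were also given genistein. PANC1 and MiaPaCa2 are established human cell lines from pancreatic ductal adenocarcinomas, and each was left untreated or received gemcitabine, genistein or both drugs. The comparison rests on 4 of the 16 libraries, namely PANC1 cells with 50 μM genistein plus 40 nM gemcitabine (co-treatment, replicates I and II) and PANC1 cells with 50 μM genistein alone (genistein, replicates I and II). All 4 were taken at 24 h, and the labels do not say whether the drugs were added together or in turn. The other PANC1 libraries, untreated controls and gemcitabine alone (40 nM, 24 h, 2 libraries each), and the MiaPaCa2 libraries of the same genistein and co-treated groups were used to show where the response differed, and the control and gemcitabine libraries also entered the PANC1 fit, where they shared the low-count filter and the estimate of the spread. Every sample came from 1 established line in culture, so no other cells of a tumor were present. The study states that the 2 replicates of each condition were biological, but the labels do not say how the cultures were kept apart. The p-values measure the spread between these libraries, part of which may be technical.

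Gemcitabine is a cytidine analogue that is phosphorylated inside the cell, blocks ribonucleotide reductase and is built into DNA, where it stops the replication fork. Stalled forks activate checkpoint kinases, which hold cells in S phase, and stress kinases such as JNK and p38, which act on AP-1, a family of transcription factors made of FOS, JUN and ATF proteins. Genistein is a soy isoflavone that binds estrogen receptors and, at higher doses, inhibits tyrosine kinases. E2F factors drive the genes of DNA replication, whereas many genes of mitosis, which are active later, in G2 phase, carry promoter elements named CHR and CCAAT.

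Promoters of genes from the groups that led the response are shown first, because the letters of these elements can be seen in them. Each line gives the 250 bases before the transcription start, read 5′ to 3′ on the gene's strand, from RefSeq on GRCh38.p14, a build that differs from the GRCh37 of the counts. The stretches lie upstream of the first exon and hold no UTR. Capitals mark the CArG boxes of EGR1, which bind serum response factor, the cAMP response elements (TGACGTCA) of DUSP8, the E2F letters of POLA2 and E2F1, and the CHR (TTTGAA) and CCAAT letters of PLK1 and CDC20. A match on either strand was marked, and it is a description of the letters and not a shown binding site.
EGR1 (chr5:138465229-138465478, plus strand): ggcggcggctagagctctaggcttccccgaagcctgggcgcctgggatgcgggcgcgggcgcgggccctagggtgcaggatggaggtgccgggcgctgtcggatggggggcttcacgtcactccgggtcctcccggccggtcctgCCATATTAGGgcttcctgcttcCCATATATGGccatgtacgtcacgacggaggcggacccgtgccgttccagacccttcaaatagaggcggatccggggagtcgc
DUSP8 (chr11:1572272-1572521, minus strand): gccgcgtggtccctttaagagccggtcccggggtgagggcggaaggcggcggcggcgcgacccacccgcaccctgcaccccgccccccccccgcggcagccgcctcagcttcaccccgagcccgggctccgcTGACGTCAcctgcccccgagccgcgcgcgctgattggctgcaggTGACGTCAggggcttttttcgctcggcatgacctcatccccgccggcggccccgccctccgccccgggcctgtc
POLA2 (chr11:65261712-65261961, plus strand): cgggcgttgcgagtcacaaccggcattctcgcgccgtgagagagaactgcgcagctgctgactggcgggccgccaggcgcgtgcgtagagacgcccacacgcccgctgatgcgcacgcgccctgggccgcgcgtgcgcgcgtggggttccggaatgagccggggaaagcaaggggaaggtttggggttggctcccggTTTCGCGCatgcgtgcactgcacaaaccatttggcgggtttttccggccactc
E2F1 (chr20:33686386-33686635, minus strand): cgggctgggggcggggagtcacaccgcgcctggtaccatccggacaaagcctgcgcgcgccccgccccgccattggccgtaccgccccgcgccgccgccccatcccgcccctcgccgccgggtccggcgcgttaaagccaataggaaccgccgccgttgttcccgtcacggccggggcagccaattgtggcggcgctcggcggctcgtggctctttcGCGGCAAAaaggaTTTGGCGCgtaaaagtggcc
PLK1 (chr16:23678639-23678888, plus strand): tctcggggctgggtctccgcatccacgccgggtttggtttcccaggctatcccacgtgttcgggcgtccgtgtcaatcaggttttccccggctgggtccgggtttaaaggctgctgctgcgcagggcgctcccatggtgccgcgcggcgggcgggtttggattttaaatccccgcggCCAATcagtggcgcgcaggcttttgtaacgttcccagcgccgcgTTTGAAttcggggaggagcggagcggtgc
CDC20 (chr1:43358731-43358980, plus strand): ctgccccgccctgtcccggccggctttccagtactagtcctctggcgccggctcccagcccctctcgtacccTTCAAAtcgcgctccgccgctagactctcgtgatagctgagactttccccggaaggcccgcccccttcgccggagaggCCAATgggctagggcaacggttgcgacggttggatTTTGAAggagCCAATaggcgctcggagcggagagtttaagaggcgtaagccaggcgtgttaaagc
The EGR1 stretch held 2 CArG boxes and the DUSP8 stretch 2 cAMP response elements. E2F letters occurred once in POLA2 and 2 times in E2F1, while CHR and CCAAT letters occurred once each in PLK1 and 2 times each in CDC20. EGR1, DUSP8, POLA2 and E2F1 were higher after gemcitabine was added to genistein, and PLK1 and CDC20 were lower, as given below.

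Counts on genes summed to between 12943482 and 31991860 per library over the 8 PANC1 libraries, with 12943482 and 13396067 in the genistein libraries and 14314926 and 16390908 in the co-treated libraries. Replicates were not duplicates of 1 library, since their chi-square per degree of freedom was 2.74 for genistein and 20.9 for co-treatment. A trend with the GC content of genes set libraries apart. Per 10 percentage points of GC content, the log2 level changed by -0.16 in co-treated replicate I and by 0.24 in co-treated replicate II, against -0.07 and -0.15 in the genistein libraries. Values after removal of each library's GC trend are therefore given beside some of the results that it moved. Markers of the PANC1 line (HMGA2, CACNA1H, HOTAIR and RYR1) summed to between 334 and 393 CPM (counts scaled to library size) in these 4 libraries and those of MiaPaCa2 to at most 2.24. Acinar and islet markers summed to at most 0.0610 CPM, endothelial markers to between 0.773 and 1.33 CPM, and stromal markers, mostly the collagen gene COL1A1, to between 130 and 148 in genistein and between 153 and 237 in co-treatment. Immune markers summed to between 0.970 and 1.62 CPM in genistein and between 2.24 and 2.56 in co-treatment, and their part in the results was not tested. CPM were taken on total counts for these marker sums and on TMM-scaled totals for all other values.

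Gemcitabine added to genistein raised many AP-1 and other immediate early genes, most snoRNA host genes and some genes of DNA replication, while some genes of mitosis, lipid synthesis, TGF-beta signaling and cell identity fell. In bulk RNA, a change in the share of cells in a state and a change of RNA per cell cannot be told apart. Of 16909 genes tested, 655 were higher (3.87%) and 728 lower (4.31%) in co-treatment than in genistein, 1383 either way (8.18%). These shares are the background for the counts called in each gene list below. A gene was called, here and below, at an adjusted p of at most 0.05 from limma-voom with Benjamini-Hochberg adjustment, a log2 fold change of 0.4 or more in size and, over the co-treated libraries, a mean deposited FPKM above 1. Rises were larger than falls, since 360 of the 655 had a log2 fold change of at least 1 and 62 of the 728 had one of at most -1. The median over all genes tested was 0.003 on the log2 scale.

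These counts rested on having both genistein libraries. Without genistein replicate I, 16 genes were called higher and 11 lower, and without genistein replicate II, 17 and 12. Without co-treated replicate II the counts were 250 and 213, and without co-treated replicate I 740 and 446. All 1383 genes kept their direction in each of these 4 fits. After GC correction 1604 of 16563 genes were called higher (9.68%) and 2188 lower (13.2%). Scaled by library size alone, which moved the median of all genes by 0.15, 1150 genes were called higher and 318 lower.
The genes called without either genistein library were singled out after their values were seen. Of these, 14 were higher, namely FAM53C, DDIT3, SNHG1, HBEGF, FOSL2, GADD45A, TNFAIP3, MAFF, BTG2, ATF3, CNN1, CREB5, EGR1 and FOS. The 10 that were lower were CSF1, TNS3, SLC6A6, PRKCA, TBC1D8, SMAD3, HSPA8, TRIO, HSP90AB1 and AHNAK. All 24 were also called when either co-treated library was left out. HBEGF, a growth factor that binds the EGF receptor, stood at 8.98 and 7.2 CPM in genistein and 30.8 and 32.1 in co-treatment, and the chaperone gene HSPA8 at 2342 and 2503 against 1160 and 1133 CPM.

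Immediate early genes, which answer stress and growth signals within minutes and need no new protein, rose in many cases. Of the 45 genes listed, 44 were tested, 21 were called higher and 1 lower, the receptor tyrosine kinase inhibitor SPRY4, and the median log2 fold change was 1.06 (0.85 after GC correction) against 0.003 for all genes. Of the 21, 6 were called without genistein replicate I, 7 without genistein replicate II and 15 without co-treated replicate II. Among AP-1 subunits 8 of 10 rose, with a median of 2.27. FOS, a subunit with a short half-life, stood at 1.05 and 0.852 CPM in genistein and at 11.9 and 15.0 in co-treatment. Its log2 fold change was 3.76 ± 0.30 (SE, n = 2 per group, adjusted p = 0.00140). Its partner JUN stood at 24.99 and 28.8 CPM in genistein and at 159 and 236 in co-treatment, a change of 2.86 ± 0.25 (adjusted p = 0.00166). For ATF3, which answers stress in most tissues, the values were 16.4 and 19.5 against 129 and 135 CPM, and the change was 2.88 ± 0.13 (adjusted p = 4.7e-04).
The co-treated replicates of JUN lay farther apart than those of ATF3. FOSB, JUNB, MAFF, FOSL2 and JUND rose by 3.03, 2.07, 2.46, 1.99 and 1.53 on the log2 scale. JUND moved most with GC content and rose by 0.71 after GC correction. FOSL1, another AP-1 subunit, had 117 and 111.1 CPM in genistein and 79.9 and 96.3 in co-treatment and was not called (-0.38 ± 0.15, adjusted p = 0.146).

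**Figure D1:**
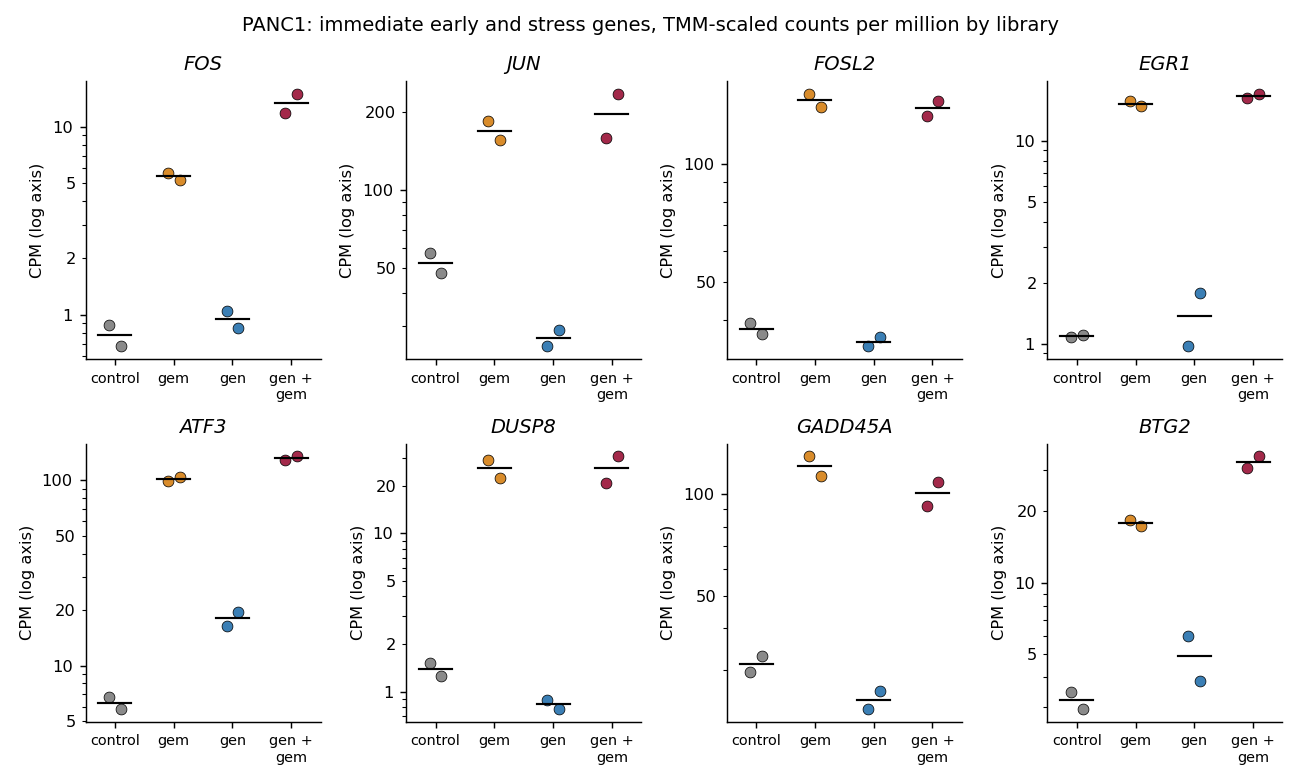
TMM-scaled CPM (log axis) of 8 genes in each PANC1 library, by group (control, gemcitabine, genistein, genistein plus gemcitabine); points are libraries and bars are group means. The 8 genes were chosen among those called higher, so the gap between co-treatment and genistein follows from that choice. FOS, for one, stood at 11.9 and 15.0 against 1.05 and 0.852 CPM.

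The plot of immediate early genes by library shows 8 genes that were called, with the gemcitabine libraries close to the co-treated ones for FOSL2, EGR1, DUSP8 and GADD45A. EGR1, a zinc finger factor with the 2 CArG boxes printed above, stood at 0.971 and 1.78 CPM in genistein and at 16.4 and 17.2 in co-treatment (3.62 ± 0.28, adjusted p = 0.00129). NR4A1, an orphan nuclear receptor, rose from 1.38 and 1.01 to 8.67 and 11.1 CPM (3.02 ± 0.29, adjusted p = 0.00259), and the Krüppel-like factor genes KLF4 and KLF10 rose by 1.03 and 0.68. EGR2, EGR4 and NR4A2 passed the adjusted p but had a mean FPKM of at most 1 and were not called. KLF6 (0.34, adjusted p = 0.109) and IER3 (-0.25, adjusted p = 0.344) did not pass.
DUSP genes encode phosphatases that switch MAP kinases off, and 5 of 12 feedback genes rose. DUSP8, a phosphatase of JNK and p38, showed the largest rise of them, from 0.890 and 0.774 CPM in genistein to 20.9 and 30.7 in co-treatment. These values correspond to 11 and 10 counts against 320 and 529, and the log2 fold change was 4.87 ± 0.42 (adjusted p = 0.00166). DUSP10, which acts on the same kinases, stood at 1.21 and 1.24 CPM in genistein and 8.08 and 5.45 in co-treatment (2.39 ± 0.32). DUSP2, DUSP5 and DUSP6, which act mainly on ERK, rose by 1.33, 1.09 and 0.91, and DUSP2 by 0.86 after GC correction. DUSP1 was at 83.9 and 75.8 CPM in genistein and 76.8 and 87.5 in co-treatment, so the groups overlapped (0.04, 95% interval -0.26 to 0.35). Of 7 targets of YAP and serum response factor, 3 were called higher and 0 lower. CNN1, a smooth muscle calponin driven by serum response factor, rose by 3.17 ± 0.33, AMOTL2 by 0.89, and CTGF, a target of YAP, by 0.59 ± 0.11. ANKRD1 (2.84), CYR61 (0.32), TAGLN (-0.15) and ACTA2 (-0.26) were not called.

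Stress and growth arrest genes moved in part. Of 28 p53 targets tested, 4 rose and none fell, with a median of 0.25, and 2 of the 4 were called without either genistein library, BTG2 and GADD45A. GADD45A, which binds PCNA and holds the cell cycle, stood at 23.1 and 26.0 CPM in genistein and 92.3 and 108.6 in co-treatment (2.03 ± 0.16, adjusted p = 0.00129). The antiproliferative gene BTG2 stood at 5.99 and 3.87 against 30.3 and 34.1 CPM (2.73 ± 0.22, adjusted p = 0.00140). AEN, a nuclease of apoptotic cells, and the kinase gene PLK3 rose by 1.38 and 1.13. The CDK inhibitor gene CDKN1A, the best known p53 target, had 134 and 130 CPM in genistein and 157 and 192 in co-treatment and was not called (0.39 ± 0.15, adjusted p = 0.148). MDM2, which encodes the ubiquitin ligase of p53, overlapped between the groups (-0.12 ± 0.21, adjusted p = 0.752).
None of the 31 apoptosis genes tested was called in limma-voom, and their median was 0.04. Sensitizers of cell death had the largest values among them, with 2.65 for BIK (adjusted p = 0.0512) and 1.08 for PMAIP1 (adjusted p = 0.0719). BIK rested on 1 and 2 counts in genistein against 12 and 19 in co-treatment. After GC correction 3 apoptosis genes were called higher and 3 lower, shares no larger than the 9.68% and 13.2% of all genes by much or at all. Among 31 genes of the integrated stress and unfolded protein responses, 3 rose and 1 fell (3.87% and 4.31% over all genes), with a median of 0.05. DDIT3, the stress factor CHOP, stood at 60.7 and 55.2 CPM in genistein and 210 and 193 in co-treatment (1.80 ± 0.11, adjusted p = 9.6e-04), with 39.6% of its exon length shared with another gene. The phosphatase subunit gene PPP1R15A rose by 1.55 and ATF3 as given above, while DDIT4, an inhibitor of mTOR, fell by 1.32. ASNS, which makes asparagine and is a target of ATF4, had a value of 0.09 ± 0.08, and the unfolded protein response gave 0 calls among 11 genes.

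The NF-kB list held 22 tested genes, of which 6 rose and 2 fell, with a median of 0.35 (0.16 after GC correction). TNFAIP3, which switches the pathway off by editing ubiquitin chains, stood at 7.04 and 8.75 CPM in genistein and 37.8 and 33.4 in co-treatment (2.17 ± 0.18, adjusted p = 0.00154). The subunit genes of the noncanonical pathway also rose, RELB from 17.1 and 15.95 to 37.7 and 58.9 CPM (1.52 ± 0.28, adjusted p = 0.0190) and NFKB2 by 0.93. NFKBIA, the main inhibitor, fell from 91.6 and 91.3 to 34.1 and 42.3 CPM (-1.26 ± 0.15, adjusted p = 0.00454), whereas the related NFKBIB rose by 1.40. Among target genes the chemokine gene CCL2 fell by 1.08 and the cytokine gene IL11 rose by 1.25, and ICAM1 had a value of 0.05 ± 0.12. TNFAIP3 was the 1 member called higher without genistein replicate I and also without genistein replicate II, and NFKB2 changed by 0.57 after GC correction.

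**Figure D2:**
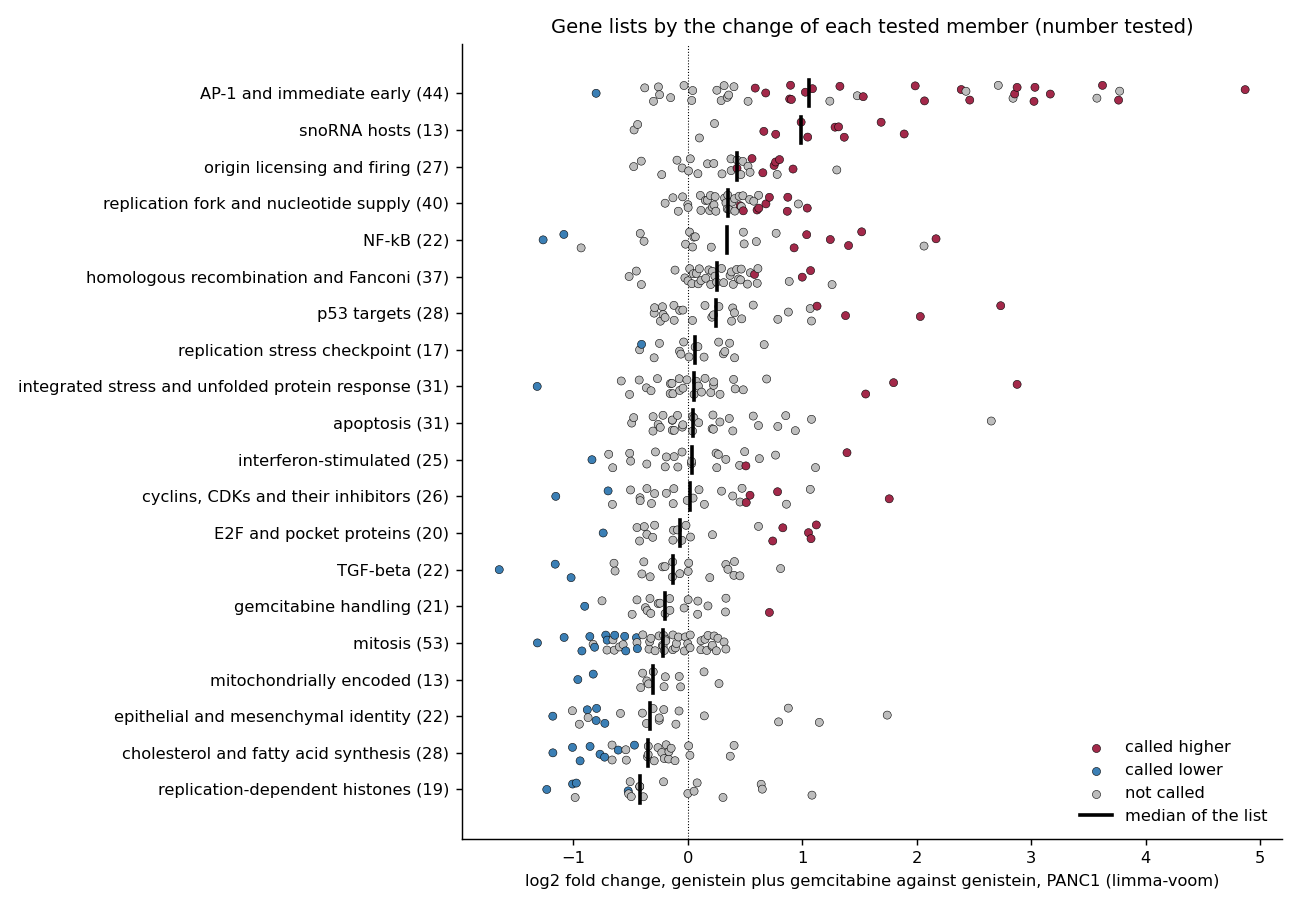
Log2 fold change of co-treatment against genistein in PANC1 (horizontal axis) for each tested member of the gene lists; points are genes (red called higher, blue called lower, grey not called), and the bar in each row is the median of the list. The AP-1 and immediate early list (median 1.06) and the snoRNA hosts (median 0.99) have the highest medians, in the reverse order after GC correction (0.85 and 0.97), and the histone, lipid synthesis and identity lists have medians of -0.42, -0.35 and -0.33.

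Several replication genes rose, and none fell before GC correction. Of 27 genes of origin licensing and firing, which load the MCM helicase on DNA and start it, 7 rose and none fell, with a median of 0.43, and of 40 genes of the replication fork and nucleotide supply, 9 rose and none fell, with a median of 0.35. None of these 16 calls was made without genistein replicate I or without genistein replicate II, and 3 of each list were called without co-treated replicate II. CDC6, which loads the helicase, stood at 156 and 159 CPM in genistein and at 309 and 289 in co-treatment. Its replicates were close in both groups, and the log2 fold change was 0.92 ± 0.09 (adjusted p = 0.00289). The helicase genes MCM2 and MCM4 rose by 0.80 and 0.66, and the firing factor genes GINS3, GINS4, CDC45 and TICRR by 0.77, 0.75, 0.56 and 0.43. CDT1, the partner of CDC6, had 25.2 and 21.4 CPM in genistein and 39.8 and 80.9 in co-treatment, with its co-treated replicates far apart, and was not called (1.30 ± 0.37, adjusted p = 0.0651). None of the 6 origin recognition genes was called, and their median was -0.02, but 1 was called higher and 2 lower after GC correction. Over the whole lists, 12 licensing genes were then called higher and 2 lower, and 15 fork genes higher and 0 lower. Of all genes 9.68% were then called higher and 13.2% lower.
At the fork, POLA2, the second subunit of DNA polymerase alpha, stood at 196 and 206 CPM in genistein and 296 and 316 in co-treatment (0.61 ± 0.10, adjusted p = 0.0128). The histone chaperone gene ASF1B, the polymerase delta subunit gene POLD3 and the flap nuclease gene FEN1 rose by 0.87, 0.87 and 0.68. RRM2, the regulated subunit of ribonucleotide reductase and a target of gemcitabine, stood at 499 and 519 against 834 and 835 CPM (0.71 ± 0.08, adjusted p = 0.00454). Its partner RRM1 had 384 and 383 against 536 and 437 CPM and was not called (0.33 ± 0.13, adjusted p = 0.157). PCNA, the sliding clamp, and TYMS, which makes thymidylate, had values of 0.15 ± 0.11 and 0.00 ± 0.08. TK1, a thymidine kinase, rose by 1.04, and by 0.66 after GC correction.

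Of 20 genes of the E2F list, 5 were called higher and 1 lower, with a median of -0.07. E2F1 stood at 140 and 132 CPM in genistein and 252 and 315 in co-treatment (1.05 ± 0.16, adjusted p = 0.0101, 0.70 after GC correction), and E2F2, E2F8 and E2F7 rose by 1.12, 1.08 and 0.83. E2F3, an activator like E2F1 and E2F2, had 60.6 and 63.3 CPM in genistein and 52.5 and 44.7 in co-treatment and was not called (-0.36 ± 0.18, adjusted p = 0.242). E2F5, which acts as a repressor with pocket proteins, fell by 0.74. Cyclin E, which drives entry into S phase with CDK2, rose in both of its genes. CCNE2 stood at 7.52 and 10.1 CPM in genistein and 41.9 and 21.4 in co-treatment (1.76 ± 0.43, adjusted p = 0.0447), with co-treated replicates far apart and 37.1% of its exon length shared with another gene. CCNE1 rose from 47.9 and 52.5 to 74.6 and 71.8 CPM (0.54 ± 0.12, adjusted p = 0.0314), CDK2 by 0.51, and CDC25A, the phosphatase that activates CDK2, by 0.78. CCND1, which acts in G1 phase, had a value of -0.13 ± 0.09 (adjusted p = 0.388), and none of the E2F or cyclin genes that rose was called without genistein replicate I or without genistein replicate II.

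Some genes of mitosis fell. Of 53 tested, 12 fell and none rose, with a median of -0.22, and 5 of the 12 were called without co-treated replicate II and none without genistein replicate I or genistein replicate II. PLK1, a kinase that drives mitotic entry, stood at 169 and 149 CPM in genistein and 56.4 and 71.4 in co-treatment (-1.31 ± 0.17, adjusted p = 0.00626). CCNB1, the mitotic cyclin, which was listed with the cyclins, fell from 418 and 456 to 203 and 190 CPM (-1.15 ± 0.10, adjusted p = 0.00166). CDC20, which activates the anaphase-promoting complex, fell from 381 and 354 to 179 and 208 CPM (-0.93 ± 0.16, adjusted p = 0.0153). These 3 genes were named among those called, so the separation of their libraries is no separate result.
KIF20A, AURKA, BUB1 and CENPA fell by 1.08, 0.86, 0.81 and 0.72. Among kinases and checkpoint genes 4 of 10 fell, with a median of -0.50, and among kinetochore genes 1 of 12 fell, with a median of 0.07 that joined 0.33 in co-treated replicate I and -0.28 in co-treated replicate II. The difference between these groups of genes was not tested. CENPE, a kinetochore motor, overlapped between the groups at 3.24 and 5.19 against 7.89 and 3.13 CPM and had a value of 0.25 ± 0.55. Against the genistein mean, the list median was 0.02 in co-treated replicate I and -0.45 in co-treated replicate II, so its size rested on the second library. The DNA helicase gene PIF1, which is not in the list, fell from 19.5 and 16.7 to 5.80 and 6.78 CPM (-1.52 ± 0.18, adjusted p = 0.00490).

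**Figure D3:**
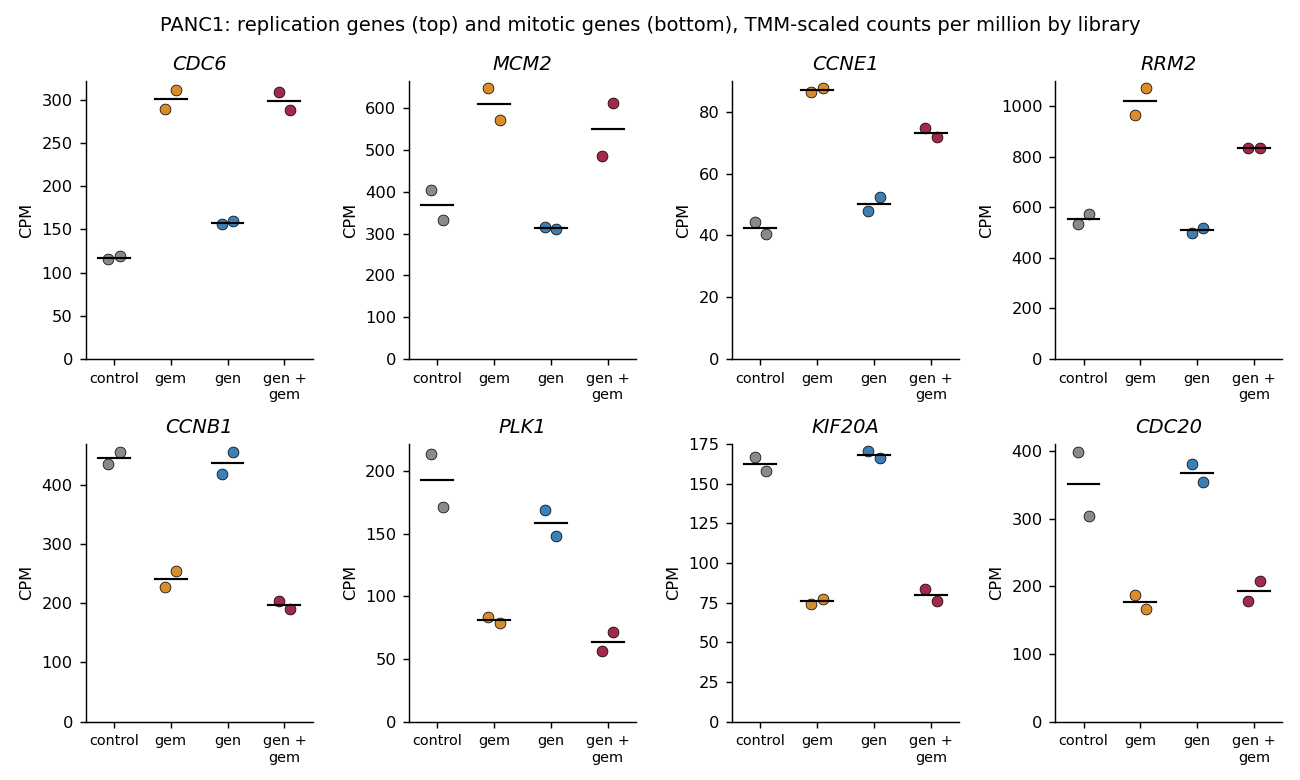
TMM-scaled CPM of 8 cell cycle genes in each PANC1 library, by group; points are libraries and bars are group means. CDC6 is higher in co-treatment (309 and 289 CPM) than in genistein (156 and 159), and PLK1 is lower (56.4 and 71.4 against 169 and 149).

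The plot of cell cycle genes by library sets these directions side by side for genes chosen among those called. Replication and cyclin E genes were higher, and PLK1, CCNB1 and CDC20 were lower. Few repair genes were called. Of 37 genes of homologous recombination and the Fanconi pathway, 3 rose (3.87% over all genes), EXO1, XRCC3 and RMI2, with a median of 0.25. After GC correction 11 rose and 2 fell, where 9.68% of all genes were called higher and 13.2% lower. EXO1, a nuclease that resects DNA ends, stood at 53.1 and 55.5 CPM in genistein and 127 and 93.7 in co-treatment (adjusted p = 0.0255). XRCC3 shared 76.7% of its exon length with another gene and is uncertain. Of 17 genes of the replication stress checkpoint, MDC1, a mediator at DNA breaks, was the 1 called, lower by -0.40 ± 0.10 (adjusted p = 0.0429), and over all genes 4.31% were lower. Replication-dependent histone genes, whose RNA lacks a poly-A tail and is poorly captured by poly-A libraries, passed the low-count filter for 19 genes. Of these 4 fell, among them HIST1H2AC by 1.23 and HIST2H2BE by 1.01, with a list median of -0.42 (-0.65 after GC correction).

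Most host genes of small nucleolar RNAs rose. These noncoding genes carry snoRNAs in their introns, and their spliced RNA is destroyed by nonsense-mediated decay when it is translated. Of 13 tested, 9 rose and none fell, with a median of 0.99 (0.97 after GC correction), and 7 were called without co-treated replicate II, 1 without genistein replicate I and 2 without genistein replicate II. SNHG1 stood at 86.9 and 100.8 CPM in genistein and at 366 and 330 in co-treatment (1.89 ± 0.13, adjusted p = 9.6e-04). SNHG15 rose from 34.2 and 34.1 to 81.4 and 85.3 CPM. SNHG8, SNHG17, EPB41L4A-AS1 and ZFAS1 rose by 1.69, 1.37, 1.32 and 1.05, and GAS5 stood at 64.2 and 71.4 against 110.5 and 104.6 CPM (0.66 ± 0.12, adjusted p = 0.0177). SNHG3 had 51.2 and 53.7 CPM in genistein and 40.7 and 35.4 in co-treatment and was not called (-0.47 ± 0.14, adjusted p = 0.0729), and SNHG5, SNHG6 and SNHG16 were not called either. Shared exons, above 30% of the exon length for SNHG8, ZFAS1, EPB41L4A-AS1 and SNHG7, leave their values uncertain.
Over all long noncoding RNAs, 69 of 1303 were called higher (5.30%) and 8 lower (0.614%), with a median of 0.25 on the log2 scale. Processed pseudogenes, which share sequence with their parent genes, showed 6 of 1990 higher (0.302%) and 50 lower (2.51%).

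Some lipid synthesis genes fell. Of 28 tested genes of cholesterol and fatty acid synthesis, 8 fell and none rose, with a median of -0.35, and none of the 8 was called without genistein replicate I or without genistein replicate II. SCD, which makes monounsaturated fatty acids, stood at 677 and 689 CPM in genistein and 351 and 360 in co-treatment (-0.94 ± 0.08, adjusted p = 0.00154). ACACA, the first enzyme of fatty acid synthesis, fell from 206 and 209 to 105.1 and 101.2 CPM (-1.01 ± 0.09, adjusted p = 0.00220). FADS2, FDFT1 and INSIG1 fell by 0.85, 0.73 and 0.61. FASN had 357 and 294 CPM in genistein and 197 and 393 in co-treatment, so the groups overlapped (-0.21 ± 0.34, adjusted p = 0.735), and its value after GC correction was -0.77.

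In the TGF-beta pathway 3 of 22 genes fell and none rose, with a median of -0.13. SMAD3, which carries the signal to the nucleus, stood at 719 and 687 CPM in genistein and at 312 and 317 in co-treatment (-1.16 ± 0.08, adjusted p = 9.6e-04). The target gene TNS3, a tensin of focal adhesions, fell from 672 and 636 to 195 and 222 CPM (-1.65 ± 0.12, adjusted p = 0.00129), and the coreceptor gene TGFBR3 fell by 1.02. SMAD3 and TNS3 were called also without either genistein library. Of 22 epithelial and mesenchymal genes tested, 5 were lower and none higher, with a median of -0.33. The mesenchymal filament gene VIM stood at 4911 and 4723 CPM in genistein and 2638 and 2890 in co-treatment (-0.80 ± 0.07, adjusted p = 0.00166), and SPARC and S100A4 fell by 0.88 and 0.72. On the epithelial side CDH1, or E-cadherin, fell from 15.8 and 13.2 to 7.17 and 5.68 CPM (-1.18 ± 0.20, adjusted p = 0.0148) and the keratin gene KRT19 fell by 0.80. SNAI2, a repressor of CDH1, had 0.324 and 0.155 CPM against 0.978 and 0.754 and was not called (1.74 ± 0.49, adjusted p = 0.0643).

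Of 21 tested genes that handle gemcitabine, RRM2 rose and the efflux pump gene ABCC4 fell by 0.90, shares near those of all genes, and the median was -0.20. After GC correction 1 was called higher and 5 lower. The kinase gene DCK, which activates the drug, had 31.1 and 33.8 CPM in genistein and 46.7 and 35.8 in co-treatment (0.33 ± 0.24, adjusted p = 0.415). The uptake transporter gene SLC29A1 had 558 and 532 against 420 and 451 CPM (-0.32 ± 0.11, adjusted p = 0.0994), and both values missed the threshold without showing that the levels were equal. After GC correction both tested uptake genes were called lower, SLC29A1 at -0.50 and SLC29A2 at -0.81, the latter with 44.6 and 40.7 CPM in genistein and 29.0 and 33.7 in co-treatment (-0.44 ± 0.18 without that correction, adjusted p = 0.165). Of 21 tested genes that the study discusses, 5 rose and 2 fell. This list was chosen by the study on these samples, so it is not independent evidence of direction. The vitamin D receptor gene VDR stood at 9.46 and 9.21 CPM in genistein and 20.4 and 22.1 in co-treatment (1.18 ± 0.14, adjusted p = 0.00482), and NR4A1, DDIT3, RELB and NFKB2 rose as given above. The drug efflux gene ABCC1 fell from 773 and 706 to 354 and 380 CPM (-1.01 ± 0.10, adjusted p = 0.00334), and the membrane protein gene TM4SF1 fell by 0.98. GPER1, a membrane estrogen receptor, had 6.88 and 6.12 CPM in genistein and 5.54 and 10.8 in co-treatment, so the groups overlapped (0.26 ± 0.35, adjusted p = 0.666). Values of 0.19, -0.24, 0.11, -0.15 and -0.09 were found for TGFB1, RXRA, CHRNA7, AKT1 and HOTAIR, and none was called.

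Interferon-stimulated genes showed 2 higher and 1 lower of 25, with a median of 0.03 (3.87% higher and 4.31% lower over all genes). IRF7, a regulator of interferon genes, was at 13.8 and 13.7 CPM in genistein and 25.8 and 50.0 in co-treatment (1.39 ± 0.34, adjusted p = 0.0447, 0.72 after GC correction). OAS3 was also called higher (0.51), and IFITM1 was called lower (-0.84). Mitochondrially encoded genes showed 2 of 13 lower (4.31% over all genes), MT-ND6 by 0.96 and MT-CYB by 0.83, with a median of -0.30.

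The 10 largest rises among genes called, named by size and by separation of the libraries, were SLC6A10P, DUSP8, FOS, IL10RA, EGR1, GRM2, CREB5, CNN1, CCDC108 and FOSB. SLC6A10P, a pseudogene of the creatine transporter, had 0 counts in both genistein libraries and 25 and 32 in co-treatment, so it was at least 7.34-fold higher against a floor of 3 counts per library. It shared 70.3% of its exon length with another gene and is uncertain. IL10RA, the receptor of interleukin 10, had 1 and 3 counts in genistein and 37 and 42 in co-treatment, a ratio of 15.3 with a 95% counting interval from 5.75 to 57.6. CREB5, a partner of JUN, stood at 2.1 and 2.6 CPM in genistein and 24.5 and 19.1 in co-treatment (3.20 ± 0.24, adjusted p = 0.00129). GRM2, a glutamate receptor gene, had a level of 0.404 and 0.155 CPM against 2.54 and 2.90, and CCDC108 of 0.324 and 0.310 against 3.13 and 2.78.
The 10 largest falls were CSF1, RAB17, TNS3, PIF1, PPP1R1B, ZMIZ1, HSPA8P1, TNIK, DDIT4 and PLK1. HSPA8P1 is a pseudogene of HSPA8, which also fell, and is uncertain, since whether its reads came from HSPA8 was not tested. CSF1, the growth factor of macrophages, stood at 417 and 377 CPM in genistein and at 105.2 and 125 in co-treatment (-1.78 ± 0.15, adjusted p = 0.00154). RAB17, a small GTPase of epithelial trafficking, fell from 8.41 and 8.21 to 2.35 and 2.78 CPM (-1.69 ± 0.24, adjusted p = 0.00874), and ZMIZ1, a coactivator, from 115.4 and 101.6 to 38.7 and 45.2 CPM (-1.37 ± 0.14, adjusted p = 0.00289). In all 20 genes both co-treated libraries lay on the same side of both genistein libraries, which the naming rule required.

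Changes were also set out by gene span and GC content. The fifth of protein-coding genes with the longest span, from 97.6 to 2242 kb, had a median of -0.21 (-0.23 after GC correction), with 10.4% called lower and 1.65% higher, while the fifth with the shortest span had a median of 0.14 (-0.04 after GC correction). The fifth of all genes with the highest GC content had a median of 0.28, and of -0.06 after GC correction.

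The response was next set beside that of PANC1 cells given gemcitabine without genistein, whose libraries enter neither group mean of the first comparison but share its model, filter and estimate of the spread. In the 4 compared libraries alone, 398 genes were called higher and 445 lower. Per 10 percentage points of GC content, the log2 level changed by 0.30 and -0.08 in the control libraries and by 0.05 and -0.13 with gemcitabine alone. Their chi-square per degree of freedom was 35.3 and 7.57. The changes by gemcitabine alone and the interactions rest on these libraries. Gemcitabine alone raised 759 genes (4.49%) and lowered 513 (3.03%). With genistein present, 750 of the 759 moved in the same direction and 377 (49.7%) were called, and the median log2 fold change of the 759 was 0.72 with genistein against 0.95 without it. Of the 513, 507 moved in the same direction and 311 (60.6%) were called, with medians of -0.64 and -0.66. Seen from the other side, 377 of the 655 genes that rose with genistein present (57.6%) and 311 of the 728 that fell (42.7%) were called with gemcitabine alone, and no gene was called in opposite directions. Each set was chosen for its size in 1 setting, which favors a larger median there.
A test of the difference between the settings, the interaction term of the same limma-voom model, called 0 of 16909 genes, with a smallest adjusted p of 0.734. At an unadjusted p under 0.05 there were 832 genes (4.92%), edgeR called 0 genes with 969 at that unadjusted p, and DESeq2 called 4. After GC correction 2173 of 16563 genes were at that unadjusted p and 2 were called, and without co-treated replicate I 2413 of 17456 were and 0 were called. The interval of the difference was wide, with an unadjusted 95% interval per gene that reached a median of 0.68 to either side on the log2 scale. Calls needed the stricter adjusted p. With 2 libraries per group, differences below that size, and also larger ones, could therefore go uncalled. ATF3 rose by 2.88 with genistein and by 4.03 ± 0.14 without it, from 6.75 and 5.82 CPM in the controls to 99.5 and 103.8, an interaction of -1.15 (95% interval -1.60 to -0.70, adjusted p = 0.734). JUN rose by 2.86 with genistein and 1.71 ± 0.21 without it, an interaction of 1.15 (95% interval 0.41 to 1.89, adjusted p = 0.734). Neither passed the adjusted threshold. FOSL2 had nearly the same change in both settings, 1.99 and 1.94, and an interaction of 0.04 (95% interval -0.33 to 0.42).

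**Figure D4:**
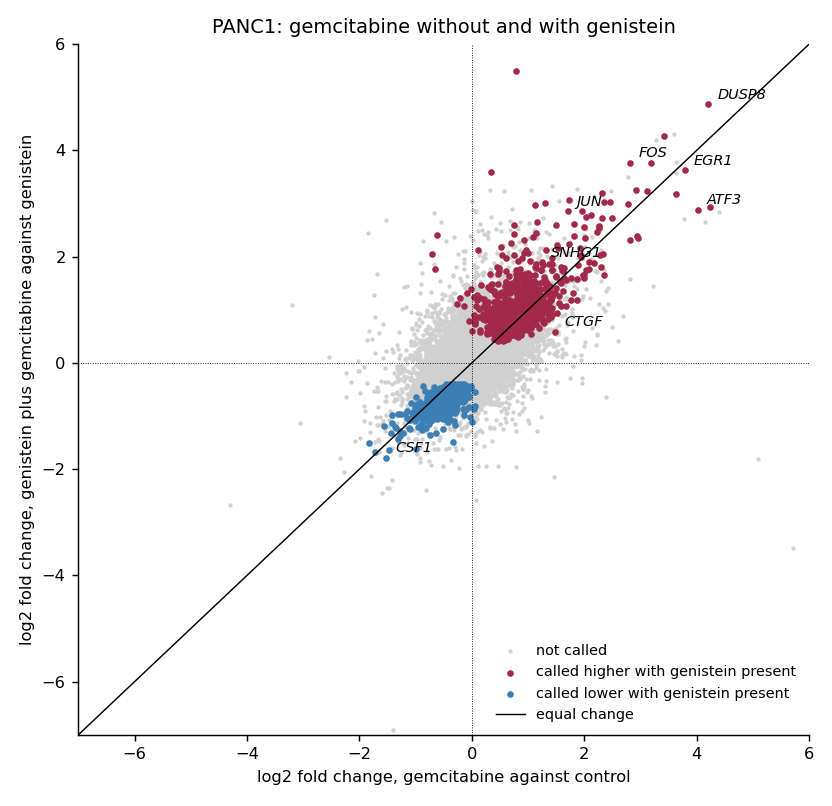
Log2 fold change by gemcitabine without genistein (horizontal axis) and with genistein (vertical axis) in PANC1 for each gene tested; points are genes, and the diagonal marks equal change. The highest red point is SLC6A10P, fitted from 0 counts in genistein. The genes called higher or lower with genistein present lie mostly near the diagonal, with 646 of 655 and 725 of 728 on the same side of 0 in both settings.

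The plot of both settings shows the called genes along the diagonal. In the snoRNA host group SNHG1 rose by 1.89 with genistein and 1.25 ± 0.12 without it, and SNHG12 changed by 0.99 and 0.30 ± 0.12, with interactions of 0.64 (95% interval 0.24 to 1.04, adjusted p = 0.734) and 0.69 (95% interval 0.28 to 1.11, adjusted p = 0.734). CDC6 changed by 0.92 with genistein and by 1.36 ± 0.09 without it, and PLK1 by -1.31 and -1.22 ± 0.15.

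The same addition of gemcitabine to genistein in MiaPaCa2 gave another pattern in many genes. In a model of all 16 libraries, 17863 genes were tested and the change differed between the lines for 1572 (8.8%) at an adjusted p of at most 0.05, with PANC1 higher for 563 (3.15%) and lower for 1009 (5.65%). Leaving out genistein replicate I or II of PANC1 gave 771 and 746 genes. Of the 655 genes that rose in PANC1, 532 moved in the same direction in MiaPaCa2, where 310 were called higher and 22 lower (background 13.5% higher and 8.93% lower), and 185 differed between the lines. Of the 728 that fell, 575 moved in the same direction, 283 were called lower and 37 higher, and 187 differed. Medians in PANC1 and MiaPaCa2 were 1.06 and 0.59 for the genes that rose and -0.62 and -0.32 for those that fell, and the choice by PANC1 favors the larger PANC1 value.

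Immediate early genes split between the lines. FOSB and NR4A1 changed by 3.05 and 3.04 in PANC1 and by 2.98 and 2.85 in MiaPaCa2, with differences of 0.07 ± 0.50 (adjusted p = 0.960) and 0.19 ± 0.41 (adjusted p = 0.838). EGR1 stood at 84.9 and 80.4 CPM in MiaPaCa2 with genistein and at 88.0 and 97.7 with both drugs, a change of 0.17 against 3.64 in PANC1, and the lines differed by 3.47 ± 0.28 (adjusted p = 2.1e-05). Its level in MiaPaCa2 with genistein alone was above that of co-treated PANC1 cells. JUN and FOSL2 also changed more in PANC1, with differences of 2.69 ± 0.30 (adjusted p = 1.7e-04) and 1.87 ± 0.14 (adjusted p = 1.6e-05). GADD45A, BTG2 and DDIT3 changed by 0.11, -0.18 and 0.06 in MiaPaCa2, against 2.05, 2.75 and 1.81 in PANC1, and each differed between the lines (adjusted p = 1.6e-04, 2.1e-05 and 3.5e-05). CDKN1A went the other way, from 18.9 and 15.8 to 99.9 and 109.1 CPM in MiaPaCa2, a change of 2.61 against 0.41 in PANC1 (difference -2.20 ± 0.23, adjusted p = 1.1e-04).
Among snoRNA hosts SNHG15 stood at 36.99 and 41.7 CPM in MiaPaCa2 with genistein and 17.7 and 20.8 with both drugs, a fall of 1.04 where PANC1 showed a rise of 1.30 (difference 2.34 ± 0.17, adjusted p = 1.6e-05). SNHG17 and the p53 target AEN likewise fell in MiaPaCa2, by 1.09 and 0.65, and rose in PANC1. Other genes did not pass the test of the difference. PLK1 changed by -1.30 in PANC1 and -1.20 in MiaPaCa2 (difference -0.10 ± 0.23, adjusted p = 0.850), TNS3 by -1.63 and -1.52 (difference -0.11 ± 0.17, adjusted p = 0.754) and CDC6 by 0.93 and 0.62 (difference 0.31 ± 0.11, adjusted p = 0.107).

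**Figure D5:**
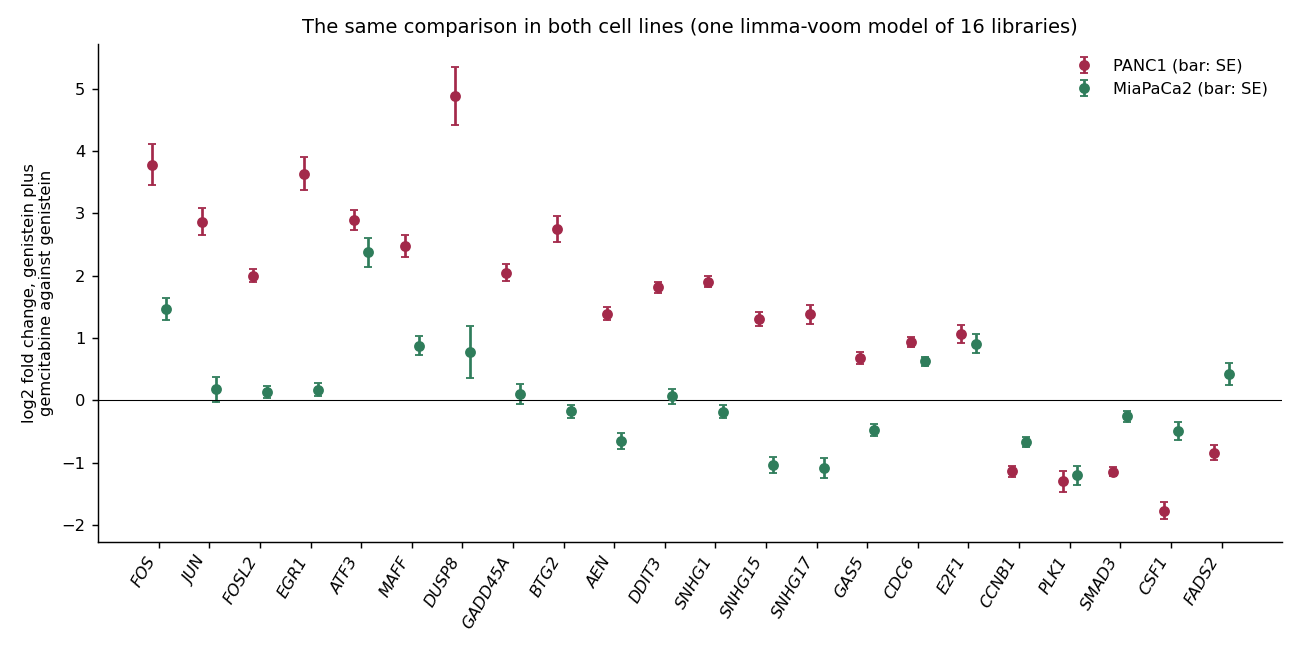
Log2 fold change by gemcitabine added to genistein (vertical axis) of 22 genes in PANC1 (red) and MiaPaCa2 (green), from the model of all 16 libraries; points are estimates and bars are their SE. EGR1 lies at 3.64 in PANC1 and 0.17 in MiaPaCa2, SNHG15 at 1.30 and -1.04, and PLK1 at -1.30 and -1.20.

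The plot of both lines shows the gap for FOSL2, EGR1 and DUSP8 and the overlap for PLK1. The 5 genes with the largest difference toward PANC1 were DUSP8, PRR7-AS1, CCDC108, CREB5 and ALOXE3, and the 5 toward MiaPaCa2 were ADAMTS15, FBXO32, SCNN1B, PCDH18 and PRICKLE1. CREB5 stood at 6.99 and 7.41 CPM in MiaPaCa2 with genistein and 6.32 and 5.01 with both drugs, so it did not rise there (difference 3.57 ± 0.29, adjusted p = 2.2e-05). DUSP8 stood at 2.63 and 1.32 against 2.84 and 3.16 CPM in MiaPaCa2 (difference 4.11 ± 0.63, adjusted p = 0.00173). ADAMTS15, a secreted protease, had 92.5 and 89.8 CPM in PANC1 with genistein and 61.2 and 79.4 with both drugs, against 0.493 and 0.142 and then 3.90 and 5.93 CPM in MiaPaCa2 (difference -4.53 ± 0.66, adjusted p = 0.00118). CCDC108 had at most 1 count in each MiaPaCa2 library of these groups, so no change could be measured there.

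Promoter letters were counted for the 11136 of 16909 tested genes (65.9%) with a RefSeq promoter matched by symbol, over 300 bases from 250 before to 50 after the start and on both strands. The AP-1 letters TGANTCA were found in 7.23% of the 484 promoters of genes that rose, 3.95% of the 557 of genes that fell and 4.39% of all, and the cAMP response element TGACGTCA in 5.99%, 2.33% and 3.31%. E2F letters (TTTCCCGC, TTTCGCGC, TTTGCCGC or TTTGGCGC) were found in 9.50%, 4.49% and 5.31%, in 11 of 23 licensing promoters (47.8%) and in 10 of 34 fork promoters (29.4%). The CHR letters TTTGAA were found in 32 of 46 mitosis promoters (69.6%) against 9.26% of all, and CCAAT in 34 of 46 (73.9%) against 36.2%. Over all called genes, CHR letters were in 7.64% of promoters of genes that rose and 10.6% of genes that fell, and CCAAT in 43.4% and 39.1%. Of 34 promoters of the immediate early list, 2 held AP-1 letters, 4 the cAMP response element and 2 a CArG box, so most lacked the letters printed for EGR1 and DUSP8. These shares describe the lists, whose members were chosen by function, and no test was made of them.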

How the data were processed

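PANC1 and MiaPaCa2 cells (2 lines, 4 groups per line, 2 libraries per group, 16 libraries) were sequenced as single reads of poly-A, stranded mRNA libraries. The authors mapped reads to GRCh37 with TopHat2 2.0.4, removed reads with multiple alignments with Picard 1.29 and counted reads per gene with HTSeq 0.6.1, and deposited unnormalized read counts of 63677 genes. The authors also deposited FPKM per gene from Cufflinks 2.1.1, scaled to transcript length and library size, which was used here only for the expression criterion and as an alternative. Which annotation release and strand option HTSeq used is not given in the sources used here, so genes with shared exons are uncertain. The deposited isoform FPKM were not used.

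From the counts, the 8 PANC1 libraries (12943482 to 31991860 counts, which limits precision for genes of few counts) were fitted with a mean per group by limma-voom (limma 3.58.1, edgeR 4.0.16 for filterByExpr and TMM, R 4.3.3). Differences of change between the lines came from 1 model of all 16 libraries. CPM are TMM-scaled, except the sums of markers, which are scaled to total counts. Calls used the study's criteria (adjusted p of at most 0.05, absolute log2 fold change of at least 0.4, mean FPKM above 1), and interaction and line difference the adjusted p alone. The GC trend of each library was removed with loess (span 0.3, degree 1) on exon GC content from GENCODE 44 lifted to GRCh37, which need not be the authors' release. Alternatives were edgeR's quasi-likelihood test, DESeq2 1.42.0, other scalings, filters, thresholds and libraries, FPKM, sample quality weights, the replicate block and each replicate left out. Leaving out the first PANC1 control library was added after seeing the data. Named were the 10 largest rises and falls among called genes whose libraries separated, up to 6 called members per list plus members that a role needs, the genes the study names, and the 5 genes each way with the largest called line difference. Members and lists were chosen with earlier results of these data known. The procedure was also run on simulated counts with no GC trend and the same spread in every group. These settings differ from the libraries used here, so no result rests on that run. Some genes that the lists hold are not reported here.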

Additional observations from a re-analysis of the deposited data

Results flagged for a closer look

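The change by gemcitabine added to genistein differed between PANC1 and MiaPaCa2 for 1572 genes, by the adjusted p of the difference in the model of all 16 libraries. The genes with the largest difference of log2 fold change are given as values, PANC1 minus MiaPaCa2. DUSP8 differed by 4.11 ± 0.63 (SE), with 320 and 529 counts in co-treated PANC1 cells against 40 and 48 in co-treated MiaPaCa2 cells. CREB5 differed by 3.57 ± 0.29 and ALOXE3, a lipoxygenase gene, by 3.48 ± 0.46. CCDC108 differed by 3.71 ± 0.97 and had at most 1 count per MiaPaCa2 library of these groups, so its value depends on the prior count of the fit. PRR7-AS1 differed by 3.89 ± 0.92 and rested on 10 and 17 counts with genistein and 0 and 2 with both drugs in MiaPaCa2, while PANC1 had 17 and 9 against 15 and 31.

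Toward MiaPaCa2, ADAMTS15 differed by -4.53 ± 0.66 and rested on 6 and 3 counts against 55 and 90 in MiaPaCa2. FBXO32, a ubiquitin ligase gene, differed by -4.37 ± 0.69, with 0 and 8 counts against 25 and 34. SCNN1B, a sodium channel subunit gene, differed by -4.07 ± 0.84, with 0 and 1 counts against 15 and 23. PCDH18, a protocadherin gene, differed by -3.87 ± 0.63, with 2 and 1 counts against 13 and 12, and PRICKLE1, a gene of planar cell polarity, by -3.75 ± 0.66, with 0 and 4 counts against 15 and 14. For these 5 genes the MiaPaCa2 genistein libraries held few counts, so the fitted differences are not bounds.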

How the results depend on the processing

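Genes called higher and lower, 655 and 728 as reported, numbered 1138 and 1023 with DESeq2, 1150 and 318 scaled by library size alone, 1121 and 276 on log2(FPKM + 1), 1022 and 263 on log2(FPKM + 0.1), 421 and 509 with no low-count filter, 398 and 445 in the 4 libraries alone, 1397 and 1204 in all 16, 1604 and 2188 after GC correction, 1139 and 989 with quality weights, 360 and 62 at a log2 fold change of at least 1, and 1.1e+02 and 142 at an adjusted p of at most 0.01. Leaving out 1 of the 4 libraries gave 16 to 740 higher and 11 to 446 lower, and a lone library is then assumed to vary like the other groups. Without the first control library, an alternative added after seeing the data, 935 were higher, 877 lower and 1996 differed between the lines. The interaction gave 4 genes with DESeq2, 2 after GC correction and 0 in the main fit and when a library was left out. The line difference, 1572 genes, gave 961 on log2(FPKM + 0.1), 4105 after GC correction, 622 at an adjusted p of at most 0.01, and 746 to 1515 with a library left out. The replicate block, by number, gave 233 higher and 266 lower, 1509 and 2118 with GC correction, and 975 and 3604 line differences, but deviations of same-numbered genistein and co-treated libraries correlated at -0.08, so the numbers are not shown to pair the libraries. Other causes were not tested.

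Small values changed sign. TGFB1 was -0.11 with either FPKM pseudocount, -0.19 after GC correction with or without the block, and -0.14 to 0.50 with 1 library left out. GPER1 was -0.068 after GC correction, -0.07 with the block too, and -0.23 to 0.73 with 1 library left out. RXRA was 0.22 and 0.24, and AKT1 0.16 and 0.16, on FPKM. CHRNA7 ranged from -0.091 to 0.30 with 1 library left out. HOTAIR was 0.052 by library size, 0.042 and 0.046 on FPKM, and -0.17 to 0.014 with 1 library left out. PRR7-AS1 ranged from -0.027 to 0.92 and SCNN1B from -0.083 to 1.06 with 1 library left out. List medians of gemcitabine handling were 0.034 and 0.035 on FPKM, of apoptosis -0.011 to 0.11 with 1 library left out, and of TGF-beta 0.012 by library size and 0.066 and 0.056 on FPKM.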
